A study of Rattus norvegicus with 48 samples.

Results

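The miR-99/100 and miR-125 families are small groups of liver miRNAs whose members share a seed, the stretch of bases that reads a target. Their 5 members, rno-miR-99a-5p, rno-miR-99b-5p, rno-miR-100-5p, rno-miR-125a-5p and rno-miR-125b-5p (the prefix rno, for rat, is left out from here on), were chosen by name out of 664 mature miRNAs that had a read, and where a name was listed for several precursors the row was selected on its total reads. The choice was made with results of these data known, among them the level of miR-100-5p with the middle dose on day 7, so that value is given here as a description only. All 5 passed the filter on low counts, as 5 of the 301 miRNAs tested. Liver small RNA was sequenced from 48 male Sprague-Dawley rats in 16 groups of 3. Controls received the vehicle, and the other groups received thioacetamide (TAA), a hepatotoxicant, once daily at 4.5 mg/kg (low dose), 15 mg/kg (middle dose) or 45 mg/kg (high dose) for 3, 7, 14 or 28 days, after which the liver was taken. Levels are given as RPM, the reads of a miRNA scaled to a common library total of miRNA reads.

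A mature miRNA guides silencing complexes to messenger RNAs that pair with its seed, bases 2 to 8. The miR-99/100 family is known for targeting mTOR and the IGF1 receptor, which drive growth, and miR-125 is the vertebrate counterpart of lin-4, the first miRNA described in worms. The genes of both families lie in clusters, in which a miR-99 or miR-100 gene, a let-7 gene and a miR-125 gene follow each other and are thought to be transcribed together.

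The mature sequences are printed to show which members share a seed, which is in capitals. RefSeq (GRCr8) held 4 of the 5, and miR-99a-5p is named only.
miR-99b-5p: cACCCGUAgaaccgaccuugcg
miR-100-5p: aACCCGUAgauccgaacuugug
miR-125a-5p: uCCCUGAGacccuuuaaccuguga
miR-125b-5p: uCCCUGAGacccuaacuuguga
miR-351-5p: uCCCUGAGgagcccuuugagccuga
Of the 693 mature miRNAs in that table, 2 carry the seed of miR-99b-5p and miR-100-5p, and 3 carry the seed of miR-125, the third being miR-351-5p. Aligned from the 5′ end, where positions are counted from 1, miR-99b-5p and miR-100-5p differ at 4 of 22 positions (C1A, A11U, C16A and C21U), all outside the seed. miR-125a-5p and miR-125b-5p share their first 13 bases. In the same annotation Mir99b, Mirlet7e and Mir125a form one cluster, whose span the gene Spaca6 overlaps, Mir99a, Mirlet7c1 and Mir125b2 form another, and Mir100, Mirlet7a-2 and Mir125b1 the third. miR-125b-5p is cut from hairpins in 2 clusters. Its precursor rows were within 2.15% of each other in total reads, so its reads were not assigned to either cluster.

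Library totals were between 293331 and 14906217 counts, and the lowest after control day 3 replicate 1 (the running number in the labels is used as the replicate number) was 4829217. Hepatocyte miRNAs (miR-122-5p, miR-192-5p and miR-194-5p) summed to between 124341 and 318113 RPM over the 48 libraries. Those of muscle summed to at most 17.1 RPM and those of brain to at most 14.7 RPM. In control day 3 replicate 1 the 3 red blood cell miRNAs summed to 98039 RPM, against 858.8 to 8757 RPM in the others, and miR-99b-5p (10299 RPM), miR-125a-5p (10592 RPM) and miR-125b-5p (4132 RPM) were above the other 2 controls of that day. Other libraries were also more like another group than their own. Over the 296 tested miRNAs that are not members, the profile of high dose day 7 replicate 26 was most similar to that of middle dose day 28 replicate 39 (Pearson's r = 0.992, against at most 0.984 with its own group). That of low dose day 28 replicate 29 was most similar to low dose day 14 replicate 40 (r = 0.993, against at most 0.981 with its own group). For 27 of the 48 libraries the most similar one was in the same group. High dose day 3 replicate 24 (r = 0.996 with control day 28 replicate 16, at most 0.982 with its own group), middle dose day 3 replicate 11 (0.995 and 0.984) and high dose day 7 replicate 27 (0.993 with low dose day 14 replicate 42, and 0.984) were about as far from their groups, and low dose day 28 replicate 30 was nearer to middle dose day 14 replicate 32 (0.994) than to its own group (0.992). Whether libraries were exchanged was not tested. Fits were repeated without control day 3 replicate 1, high dose day 7 replicate 26 and low dose day 28 replicate 29. These 3 were picked after the values had been seen, and the last 2 also differ from their groups in the members themselves, so the values without them are descriptions. Nothing in the labels says more about how the 3 rats of a group were handled, so the spread between them may be partly technical.

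**Figure D1:**
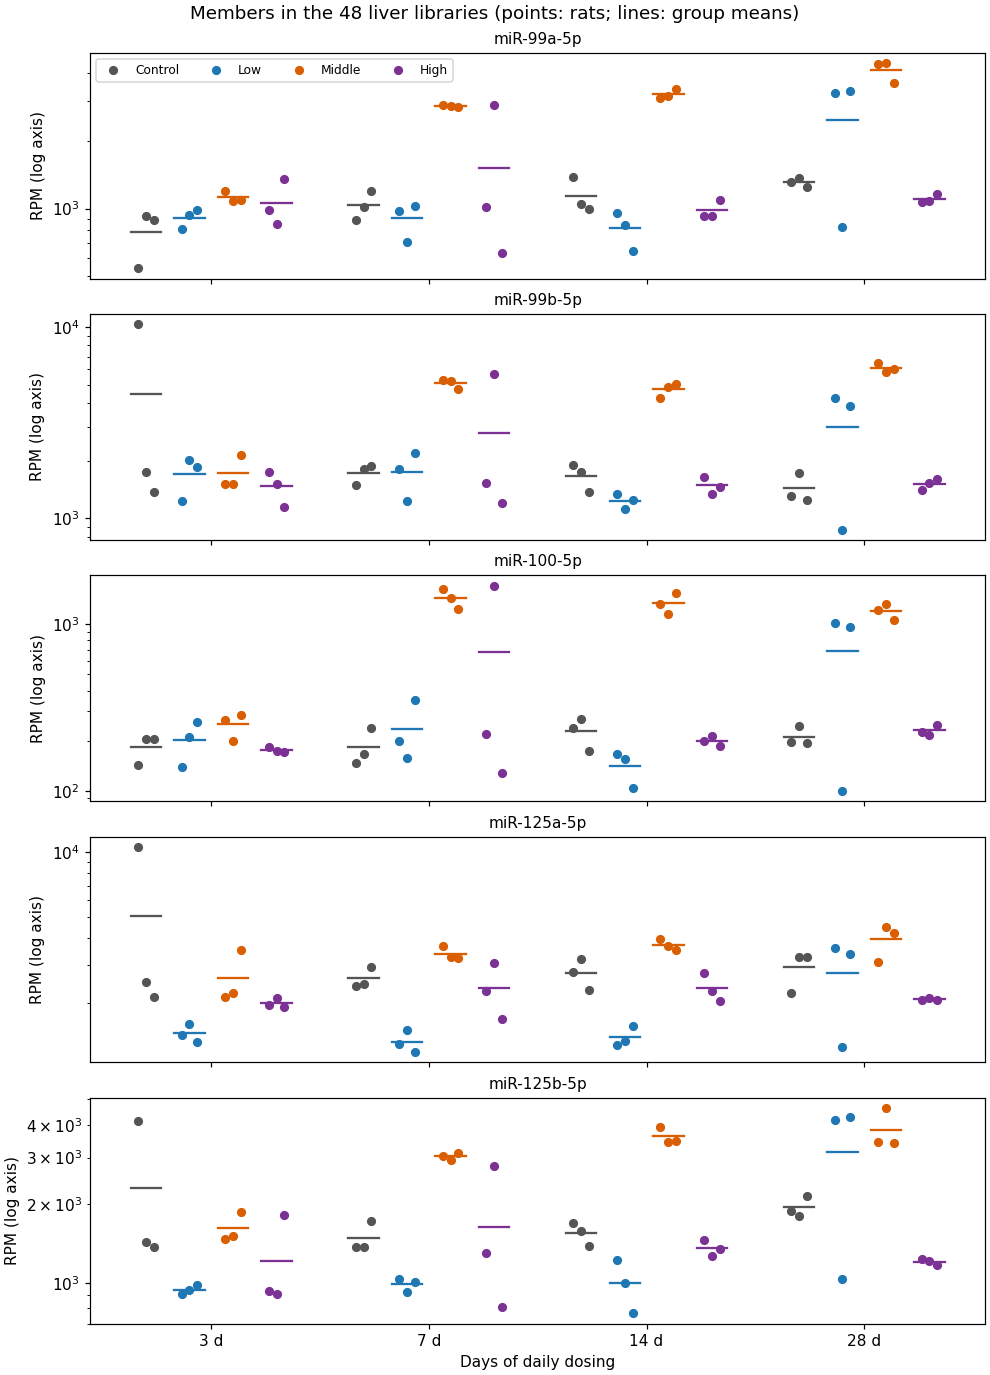
RPM (log axis) of the 5 members in every library, by days of dosing and dose. Points are rats and lines are group means, and the 9 middle dose libraries on days 7, 14 and 28 lie above the controls of their day for miR-99a-5p, miR-99b-5p, miR-100-5p and miR-125b-5p.

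miR-100-5p showed the widest separation between libraries. It was between 960 and 1706 RPM in 12 libraries and between 100 and 351 RPM in the other 36, with no library in the 2.73-fold gap between them. The upper 12 were the 9 middle dose libraries on days 7, 14 and 28, low dose day 28 replicates 28 and 30, and high dose day 7 replicate 26. The same 12 were the upper libraries of miR-99a-5p, at 2837 to 4437 RPM against 542 to 1378 RPM. For miR-99b-5p (3878 to 6513 RPM) and miR-125b-5p (2775 to 4624 RPM) these 12 were again above all others (at most 2188 and 2139 RPM) except control day 3 replicate 1. miR-125a-5p had no such gap: the 12 libraries were at 3063 to 4511 RPM, and the other 36 without control day 3 replicate 1 at 1189 to 3519 RPM.

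The upper libraries carry the running numbers 26, 28 and 30 to 39. Controls carry numbers from 1 to 18, high dose libraries from 7 to 27, and the middle dose on day 3, which was not in the upper level, 10 to 12, whereas the other middle dose groups carry 31 to 39. miR-125a-5p was at or below 1699 RPM in 11 libraries, which carry the numbers 27, 29 and 40 to 48. These are low dose libraries except for number 27, of high dose day 7. No control has a number above 18, so dose and running number cannot be told apart here, and the labels do not say what the number stands for.

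With the middle dose, 4 of the 5 members were higher than in the controls of the day on days 7, 14 and 28, and 0 on day 3. To be called, a miRNA had to differ from its controls by more than 1.5-fold with p below 0.05 before adjustment, as in the methods of the study. Over all 301 miRNAs, the percentages called in either direction were 2.99% after 3 days, 15.9% after 7, 17.3% after 14 and 32.9% after 28. Apart from miR-100-5p on day 7, which is given without a test, these calls also passed the Benjamini-Hochberg adjustment over all 301. A lack of overlap between treated and control rats, in either direction, was common. It held for 44.2%, 43.5% and 52.2% of all miRNAs on days 7, 14 and 28 with the middle dose. In bulk liver, a change in the number of cells of a type and a change in RNA per cell cannot be told apart.

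miR-100-5p, of the family that targets mTOR, changed most. The controls had 148, 167 and 238 RPM on day 7 and the middle dose rats 1636, 1431 and 1228 RPM, with a log2 fold change of 2.85 (SE 0.17). On day 14 the values were 238, 269 and 175 RPM in controls and 1327, 1156 and 1539 RPM in middle dose rats. The lowest treated rat was above the highest control on both days. The log2 fold change on day 14 was 2.40 (SE 0.18, edgeR adjusted p = 3.64e-06). On day 28 the controls had 198, 244 and 194 RPM and the middle dose rats 1219, 1317 and 1069 RPM, again without overlap. This was a log2 fold change of 2.23 (SE 0.19, edgeR adjusted p = 1.7e-05). On day 3 the middle dose rats had 268, 200.2 and 287 RPM and the controls 143, 204 and 204 RPM, which overlapped.

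miR-99a-5p and miR-99b-5p, of the same family, also rose. For miR-99a-5p, controls had 891, 1015 and 1200 RPM on day 7 and middle dose rats 2902, 2861 and 2837 RPM. On day 28 the values were 1306, 1374 and 1245 RPM and 4386, 4437 and 3612 RPM. The groups did not overlap on these days or on day 14, and the log2 fold changes were 1.37 (SE 0.11), 1.34 (SE 0.14) and 1.39 (SE 0.17) on days 7, 14 and 28 (edgeR adjusted p at most 0.000315). miR-99b-5p was at 1496, 1805 and 1886 RPM in day 7 controls and at 5277, 5217 and 4763 RPM in middle dose rats. On day 28 it was at 1316, 1733 and 1253 RPM and 6513, 5800 and 5999 RPM. Its log2 fold changes were 1.45, 1.33 and 1.82 in the same order (SE 0.11, 0.13 and 0.17, edgeR adjusted p at most 3.52e-05), again with no overlap.

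The miR-125 members, counterparts of lin-4, parted from each other. miR-125b-5p was at 1695, 1580 and 1385 RPM in day 14 controls and at 3936, 3442 and 3462 RPM in middle dose rats, and its log2 fold changes were 0.93 (SE 0.10), 1.06 (SE 0.13) and 0.70 (SE 0.19) on days 7, 14 and 28 (edgeR adjusted p at most 0.0175). The day 28 call of miR-125b-5p was lost without replicate 38 (log2 fold change 0.51) and with no filter (0.55), where it fell under the fold threshold, and in a single fit of all 48 libraries, where the fold change was again 0.70 but the p-value was above 0.05. miR-125a-5p was at 2803, 3210 and 2298 RPM in day 14 controls and at 3952, 3695 and 3547 RPM in middle dose rats. Its log2 fold changes were 0.28, 0.27 and 0.15, below the fold threshold on each day.

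With the low dose, miR-125a-5p was the member called. It was called lower on days 3, 7 and 14, while 0 members were called higher at any time, against 16.6%, 28.9%, 32.6% and 12.3% of all miRNAs called in order of time. On day 7, controls had 2415, 2455 and 2951 RPM and low dose rats 1292, 1506 and 1189 RPM. On day 14 the low dose rats had 1288, 1343 and 1562 RPM. On both days every low dose rat was below every control. Of all miRNAs, 57.1% on day 7 and 54.5% on day 14 also did not overlap their controls, in either direction. The log2 fold changes of miR-125a-5p were -0.86 (SE 0.11, edgeR adjusted p = 0.000384) and -0.83 (SE 0.14, edgeR adjusted p = 0.00134). On day 3 the low dose rats had 1434, 1599 and 1319 RPM against 10592, 2510 and 2144 RPM. The day 3 value was -1.50 (edgeR adjusted p = 0.26), and without the first control it was -0.52, under the fold threshold. miR-125b-5p did not overlap its controls on days 7 and 14 either, at 1036, 923 and 1010 RPM and 1223, 995 and 765 RPM, but its log2 values of -0.46 and -0.49 were within the fold threshold.

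On day 28 the low dose group was mixed. For miR-100-5p its rats were at 1024, 100.1 and 960.3 RPM, and for miR-99a-5p at 3276, 826 and 3321 RPM, replicate 29 being the low one. For miR-125a-5p the values were 3593, 1261 and 3401 RPM. None of the 5 members was called with all 3 rats, by an unadjusted p-value or an adjusted one (edgeR), although the DESeq2 Wald test called 3 higher. Without replicate 29, miR-100-5p had a log2 fold change of 1.93, miR-99b-5p of 1.20, miR-99a-5p of 1.03 and miR-125b-5p of 0.81. All 4 values are descriptions, since this rat was left out after its member levels had been seen. miR-125a-5p was then at -0.04.

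With the high dose, 1 member was called, miR-125b-5p on day 28, lower. Over all miRNAs, the percentages called were 11.3%, 21.3%, 9.3% and 15.3% in order of time. The rats had 1238, 1209 and 1169 RPM against 1883, 1800 and 2139 RPM in controls, with no overlap, as for 34.6% of all miRNAs. The log2 fold change was -0.76 (SE 0.15, edgeR adjusted p = 0.0179). miR-125a-5p was at 2078, 2114 and 2075 RPM in the same rats, also below its controls, with a log2 value of -0.55 that was under the fold threshold. On day 14 the 5 members were within -0.44 and -0.38 on the log2 scale, with unadjusted p-values below 0.05 for 5 of them and adjusted ones (edgeR) above it. The share of all miRNAs below that unadjusted p-value was not counted. On day 7 replicate 26 set the group mean: miR-100-5p was at 219, 1706 and 127 RPM and miR-99b-5p at 1525, 5667 and 1210 RPM. The log2 fold change of miR-100-5p was 1.80 (SE 0.87) with this rat and -0.15 without it, and that of miR-125b-5p went from 0.05 to -0.55. Without replicate 27 the value of miR-100-5p was 2.28 and without replicate 25 it was 2.22, both called, so each value for this group depends on which rat is left out.

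On day 3 the low, middle and high dose rats overlapped the controls for miR-99b-5p, which was at 10299, 1745 and 1371 RPM in controls, 1227, 2022 and 1850 RPM after low dosing, 1508, 1506 and 2156 RPM after middle dosing and 1756, 1506 and 1149 RPM after high dosing. Its log2 fold changes of -1.07, -1.22 and -1.40 became 0.28, 0.13 and -0.05 without control replicate 1. The median log2 fold change of all miRNAs under this scaling was above 0.1 in 5 conditions, at 0.16, 0.20 and 0.28 on day 3 in order of dose, 0.14 with the high dose on day 7 and 0.11 with the low dose on day 14, and values near these sizes carry no direction.

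**Figure D2:**
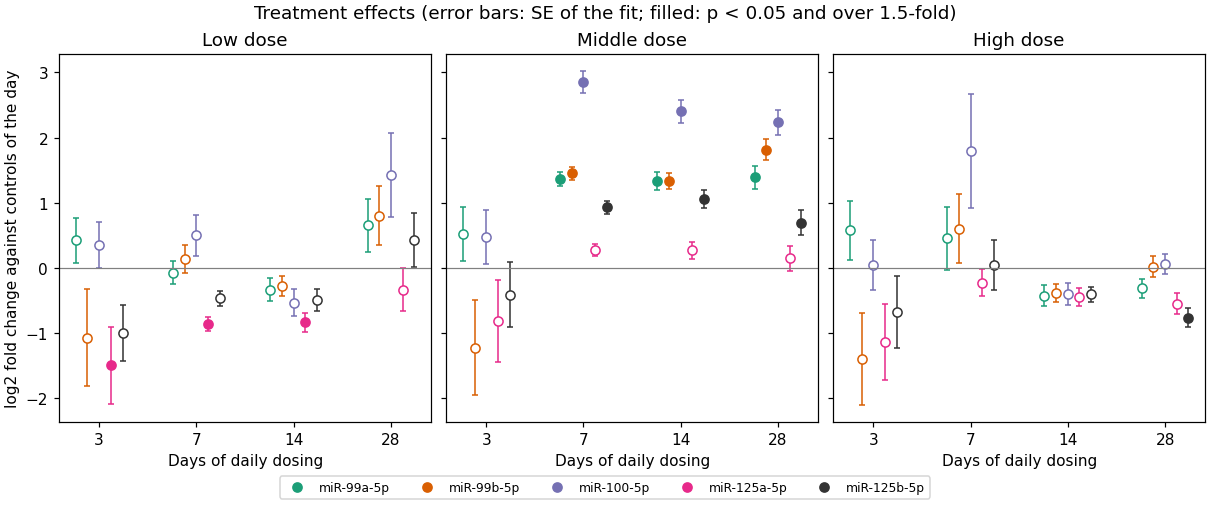
log2 fold change against the controls of the day for each member, dose and time. Circles are fitted values with error bars of 1 SE, and filled circles were called, namely the 12 middle dose values above zero, miR-125a-5p with the low dose on days 3 to 14 and miR-125b-5p with the high dose on day 28.

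Over the 4 times together, in 1 fit of 48 libraries, the mean middle dose effect was 1.99 on the log2 scale for miR-100-5p (SE 0.27). It was 1.15 for miR-99a-5p, 0.85 for miR-99b-5p and 0.57 for miR-125b-5p (edgeR adjusted p = 3.94e-06, 0.00413 and 0.0114). For miR-125a-5p it was -0.03. miR-125a-5p was the member called lower with the low dose, by -0.88 (SE 0.16, edgeR adjusted p = 3.04e-05). It was also called lower with the high dose, by -0.59 (SE 0.16, edgeR adjusted p = 0.00551). In these comparisons the shares of all miRNAs that passed were 49.8% (low), 36.5% (middle) and 28.2% (high). Without the 3 libraries left out, the values of miR-125a-5p were -0.56 and -0.40, and with the low dose miR-99b-5p was at 0.34 and miR-100-5p at 0.51, all as descriptions. The mean middle dose effect was then 0.22 for miR-125a-5p, of the other sign but still not called, and 1.18 for miR-99b-5p.

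The middle dose was compared directly with the others at each time, a comparison that was added after the values had been seen. Against the low dose, all 5 members were higher on day 14, and on day 7 the 4 others were, beside miR-100-5p, whose difference of 2.35 rests on the known values and is a description. miR-100-5p differed by 2.94 on the log2 scale on day 14 (SE 0.56) and miR-125a-5p by 1.10 (SE 0.32, edgeR adjusted p = 0.0127). The members called were 0 on day 3 and on day 28 (1 and 2 at an unadjusted p-value below 0.05 in edgeR, beside 79 and 71 of all 301 miRNAs). Over all miRNAs 11.6%, 28.9%, 23.3% and 4.32% were called in order of time. Against the high dose, 4 members were higher on days 14 and 28, all but miR-125a-5p, and 0 on days 3 and 7. At an unadjusted p-value below 0.05 in edgeR these were 0 and 2, beside 36 and 48 of all 301 miRNAs. The shares of all miRNAs were 0.332%, 2.66%, 5.32% and 10.6%. Without the 3 libraries left out, the difference of miR-125a-5p from the high dose was 0.72 on day 14 and 0.70 on day 28. On day 7 the differences were then 0.72 (miR-125a-5p) to 1.84 (miR-99b-5p), with 3.00 for miR-100-5p. All of these are descriptions.

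Between the high and the low dose, 0 members were called at any time by edgeR. The shares of all miRNAs, in order of time, were 13.6%, 8.64%, 19.3% and 2.66%. An unadjusted p-value below 0.05 (edgeR) was found for 4 member values, and for 76, 76, 90 and 58 of all 301 miRNAs in order of time. The DESeq2 Wald test called miR-99a-5p and miR-125b-5p on day 28, as did edgeR without a filter. The day 28 effect also was not distinguished from the day 7 effect for any member at any dose by edgeR, where 0%, 0% and 0.332% of all miRNAs were called with the low, middle and high dose. Here 1 member value had an unadjusted p-value below 0.05, as had 42, 29 and 48 of all 301 miRNAs in order of dose. Without the 3 libraries left out, the day 28 and day 7 effects of the low dose were apart by 0.81 (miR-125a-5p) to 1.43 (miR-100-5p). The high minus low dose difference on day 28 was then -0.51 for miR-125a-5p and -1.18 (miR-99b-5p) to -1.86 (miR-100-5p) for the other 4. These values are descriptions, since the libraries were picked after the values had been seen.

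Among the 16 groups, the middle dose means of days 7, 14 and 28 were the highest for miR-99a-5p, miR-99b-5p and miR-100-5p. For miR-125b-5p low dose day 28 lay among them. The order of the other groups differed between members, the day 3 controls being at rank 1 from the lowest for miR-99a-5p and 13 for miR-99b-5p. The lowest means of miR-99a-5p were 785 ± 212 RPM (day 3 controls) and 818 ± 159 RPM (low dose day 14), and the highest were the days 7, 14 and 28 middle dose groups with 2867 ± 32.9, 3230 ± 166 and 4145 ± 462 RPM (SD, n = 3). Of its 15 pairs of neighbours in this order, only the last 2, within the middle dose, did not overlap. For miR-100-5p the lowest mean was 141 ± 33.1 RPM (low dose day 14) and the highest 1432 ± 204 RPM (middle dose day 7, SD, n = 3), and 13 of 15 neighbour pairs overlapped. For miR-99b-5p 14 of 15 overlapped, up to 6104 ± 368 RPM (middle dose day 28), and for miR-125b-5p 15 of 15, from 942 ± 37.4 (low dose day 3) to 3818 ± 698 RPM (middle dose day 28). The lowest group of miR-125a-5p was low dose day 7, 1329 ± 162 RPM, and 14 of 15 pairs overlapped. Its highest mean was that of the day 3 controls, which control day 3 replicate 1 raised.

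Ratios of 2 members within a library do not depend on how libraries are scaled, and 7 were compared between treated and control rats for each dose, with exact 2-sided permutation within time points and Benjamini-Hochberg adjustment over 21 tests (smallest possible p = 1.25e-05). Within the miR-99/100 family, the ratio of miR-100-5p to miR-99a-5p differed by 0.82 on the log2 scale with the middle dose, and that to miR-99b-5p by 1.03. Both include the known day 7 values and are given as descriptions without a p-value. On days 14 and 28 alone the ratio to miR-99a-5p differed by 1.06 and 0.85, whereas on day 3 it was -0.10. The ratio of miR-99a-5p to miR-99b-5p was 0.20 (exact permutation, adjusted p = 0.913), with 1.33 on day 3 and between -0.44 and 0.01 later, and -0.09 without control day 3 replicate 1. With the low and the high dose 0 of the 3 ratios of this family passed.

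In the miR-125 family the ratio of miR-125b-5p to miR-125a-5p rose with the low dose, by 0.42 (exact permutation, adjusted p = 0.00412), and with the middle dose, by 0.56 (exact permutation, adjusted p = 0.000438), and was 0.03 with the high dose. It was higher at all 4 times with both of the first. miR-125a-5p was lower with the low dose and miR-125b-5p higher with the middle dose, as above.

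Members of 1 cluster also parted. In the cluster of Mir99b and Mir125a, the ratio of miR-99b-5p to miR-125a-5p rose by 0.78 with the low dose and by 0.93 with the middle dose (exact permutation, adjusted p = 0.000328 and 0.000591). With the high dose it was 0.27 (exact permutation, adjusted p = 0.108), and without control day 3 replicate 1 it passed, at 0.32 (exact permutation, adjusted p = 0.0292). The ratio of miR-99a-5p to miR-125b-5p rose by 0.53, 0.58 and 0.49 in order of dose (exact permutation, adjusted p at most 0.00222). That of miR-100-5p to miR-125b-5p rose by 0.68 with the low and 0.66 with the high dose (exact permutation, adjusted p at most 0.0118), and was 1.40 with the middle dose, a description since it includes the known day 7 values. Without control day 3 replicate 1 these values were smaller but still passed. The ratio of miR-99a-5p to miR-125b-5p was then 0.34, 0.38 and 0.30 in order of dose (exact permutation, adjusted p at most 0.00618). That of miR-100-5p to miR-125b-5p was 0.51 with the low and 0.49 with the high dose (exact permutation, adjusted p at most 0.0305), and 1.23 with the middle dose as a description. miR-125b-5p is the denominator of both ratios, and comes from both clusters. Of the 7 ratios, 4 passed with the low dose and 2 with the high dose, and of the 4 without miR-100-5p, 3 passed with the middle dose.

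**Figure D3:**
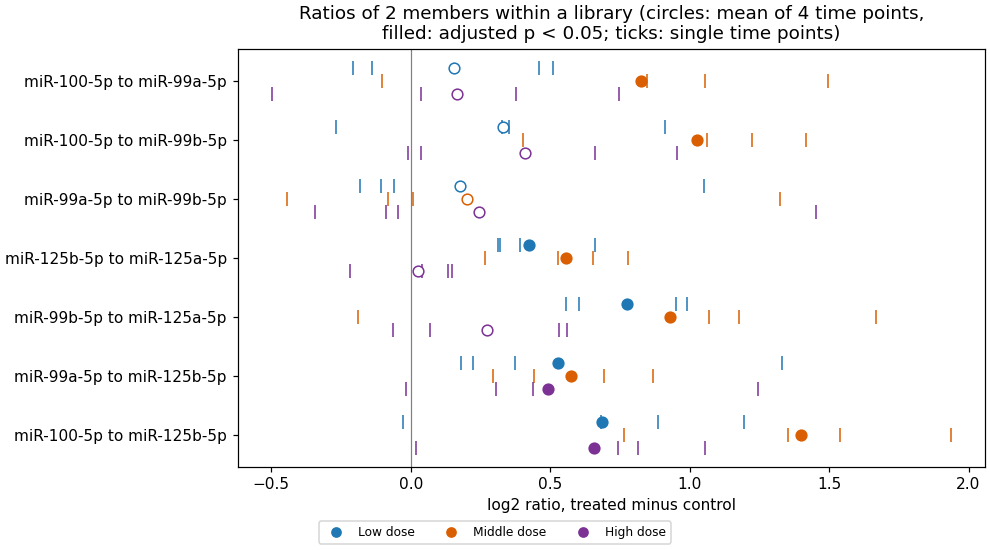
Difference between treated and control rats in the log2 ratio of 2 members, for 7 ratios and 3 doses. Circles are means over the 4 times, filled where the adjusted p-value was below 0.05 (4 low, 6 middle and 2 high dose, 3 of the middle dose ones being ratios of miR-100-5p that include values known beforehand), and ticks are single times.

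A hairpin gives a 5p and a 3p strand, and the 3p strands did not show the separation of libraries. They are printed for the pair with the deepest counts.
miR-99a-3p: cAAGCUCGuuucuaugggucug
miR-125b-2-3p: aCAAGUCAggcucuugggaccu
Over the upper 12 libraries of miR-100-5p, miR-99a-3p was at 40.9 to 65.9 RPM, within its range of 20.5 to 85.7 RPM in the other 36. miR-125b-2-3p was at 279.8 to 366 RPM there and at 249 to 573 RPM elsewhere. With the middle dose 0 of the 4 tested 3p strands were called higher at any time and 1 was called lower on day 14 and on day 28, miR-125a-3p (log2 fold change -1.04 and -0.66), at 1.78 to 5.21 RPM in the groups compared. miR-99b-3p and miR-100-3p were under the filter for a fold change test, at 0 to 6.82 RPM.

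Among the 3p strands, miR-99a-3p and miR-125b-2-3p were called higher after low dosing. miR-99a-3p was at 31.9, 31.3 and 34.8 RPM in day 7 controls and 54.4, 62.1 and 52.9 RPM in low dose rats, with no overlap, a log2 fold change of 0.90 (SE 0.11, edgeR adjusted p = 0.000442). On day 14 it was 0.78 (edgeR adjusted p = 0.0104). miR-125b-2-3p was at 286, 288 and 301 RPM and 417, 437 and 430.4 RPM on day 7, also without overlap (log2 fold change 0.67, edgeR adjusted p = 0.000789), while miR-125b-5p of the same hairpin family was below its controls. A test of 5 ratios of the 5p to the 3p strand, added after the values were seen, gave higher ratios for 5 of 5 with the middle dose. The differences were between 0.62 (miR-125a) and 1.21 (miR-99b) on the log2 scale of counts with a pseudocount of 1 (exact permutation, adjusted p at most 0.0156). The ratio of miR-99b rests on a 3p strand with few reads, 2 to 69 counts per library, and its size is uncertain. The 2 counts were in control day 3 replicate 1, without which the middle dose value was 1.30 (exact permutation, adjusted p = 0.000938). With the low dose 3 of 5 were lower, -0.63 for miR-99a, -0.74 for miR-125b to miR-125b-2-3p and -0.43 for miR-125a (exact permutation, adjusted p at most 0.0233), but 0 of 5 without low dose day 28 replicate 29. With the high dose 1 passed, miR-125b-5p to miR-125b-1-3p (-0.60), and 3 without high dose day 7 replicate 26.

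**Figure D4:**
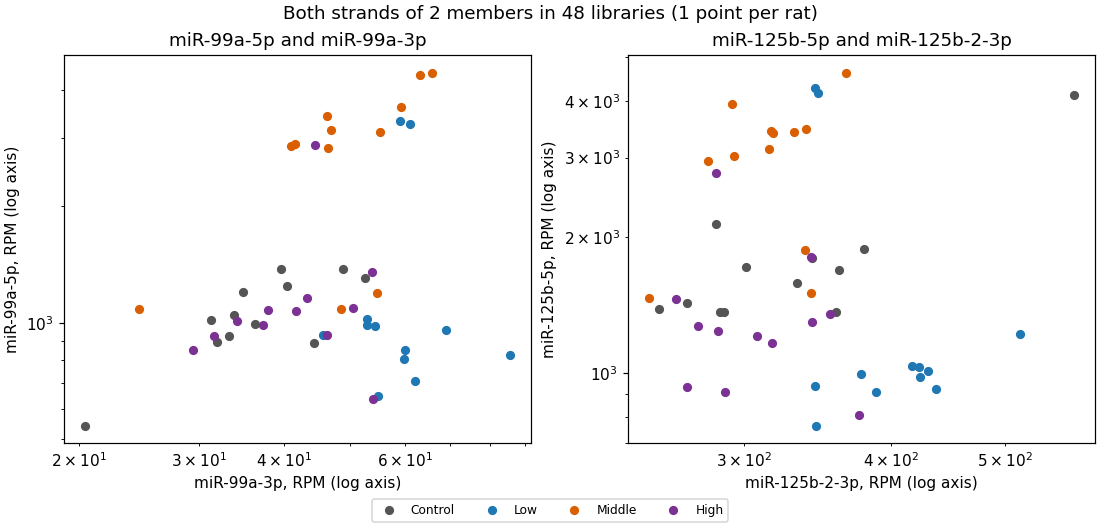
RPM of the 5p strand against that of a 3p strand in 48 libraries, for miR-99a and for miR-125b with miR-125b-2-3p, both axes on a log scale. The 9 middle dose libraries of days 7 to 28, 2 of the low dose and 1 of the high dose are at 2837 to 4437 RPM for miR-99a-5p, above the others, over a range of miR-99a-3p that the others share.

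The let-7 miRNAs of the same clusters did not follow the members upward. let-7 miRNAs are known for restraining growth genes. With the middle dose 0 of 3 let-7 5p strands were called higher at any time and 1 was called lower, let-7e-5p on day 28 (-0.63, edgeR adjusted p = 0.0367). With the low dose let-7a-5p, the neighbour of miR-100, was at 10239, 11924 and 10829 RPM on day 7 against 6627, 6311 and 5701 RPM in controls, a log2 fold change of 0.94 (SE 0.10, edgeR adjusted p = 0.000239). On day 14 it was 0.96, and let-7c-5p was 0.83 on day 7. On day 28 low dose replicate 29 had 10184 RPM of let-7a-5p, against 5686 and 6295 RPM in replicates 28 and 30. let-7a-5p and let-7c-5p arise from several loci, so these reads are not of 1 cluster. Of the 5 let-7 3p strands, 3 were tested and 1, let-7e-3p, was called lower, with the low dose on days 7 and 28 (-0.90 and -0.60). let-7a-1-3p and let-7c-2-3p have nearly identical counts and cannot be told apart.

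Relatives by sequence behaved otherwise. miR-351-5p, with the miR-125 seed shown above, was called in 0 of 12 conditions by edgeR, at 522 to 760 RPM in the upper 12 libraries and 384 to 1107 RPM in the others without control day 3 replicate 1. miR-10a-5p and miR-10b-5p, of the family thought to share an ancestor with miR-99/100, were called lower in 1 condition (low dose day 28, -0.60) and in 2 (low and middle dose day 7, -1.54 and -2.41).

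Among miRNAs that are no members, the group means most like those of the members were found as a description over 16 groups, on the log2 scale of normalized RPM. The members themselves correlated with r between 0.53 (miR-100-5p and miR-125a-5p) and 0.94 (miR-99a-5p and miR-100-5p). miR-501-3p was the most alike for miR-99b-5p (r = 0.956) and miR-100-5p (r = 0.949), miR-362-5p for miR-99a-5p (r = 0.898), miR-6216 for miR-125b-5p (r = 0.944) and miR-150-5p, a lymphocyte miRNA, for miR-125a-5p (r = 0.845). These points share libraries and scaling. miR-501-3p had log2 fold changes of 1.98, 1.98 and 2.08 with the middle dose, and miR-362-5p of 1.77, 1.75 and 1.65. miR-150-5p was lower with the low dose on day 7 (-1.38) and day 14 (-0.74).

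Some marker miRNAs of the cells in liver also differed from controls in libraries where members did. The 3 red blood cell miRNAs summed to 1656 to 3353 RPM in the 9 middle dose libraries of days 7 to 28 and to 2753 to 6013 RPM in the 9 controls of those days, and 2, 3 and 2 of them were called lower on days 7, 14 and 28. Their sum was below all controls of the day on days 7 and 14 and overlapped them on day 28. Sums of the 4 leukocyte miRNAs (2887 to 6176 RPM, controls 3098 to 4473), the 2 endothelial (19809 to 28246, controls 20495 to 28461), the 5 epithelial or bile duct (573.5 to 1489, controls 555.6 to 1072) and the 5 smooth muscle or stellate miRNAs (30974 to 41985, controls 23284 to 46697) overlapped with these days pooled. Day by day, the smooth muscle or stellate sum was below all controls on days 7 and 14 and above them on day 28. The leukocyte sum was above all controls on days 7 and 28, and the endothelial sum on day 7. These 4 sums overlapped their controls on the other days. Within these sums, 1 smooth muscle or stellate miRNA was called higher on day 7 and 2 on day 28, and 0 were called lower. Of the epithelial or bile duct miRNAs, 1 was called higher on day 14, and 1 higher and 1 lower on day 28. Leukocyte and endothelial miRNAs had 0 calls on these days. The sum of the hepatocyte miRNAs overlapped as well with the days pooled (242592 to 287441 RPM, controls 221046 to 252084), but was above all controls on each day. It was 242592 to 256708 RPM on day 7 (controls 221131 to 242511) and 245551 to 287223 RPM on day 14 (controls 230896 to 244494). On day 28 it was 276829 to 287441 RPM (controls 221046 to 252084). After upper quartile normalization, 1 of the 3, miR-122-5p, was called lower on day 28 (log2 fold change -0.61, edgeR adjusted p = 0.0164), when miR-194-5p was at -0.45 and miR-192-5p at 0.05. In the 6 low dose libraries of days 7 and 14, in which miR-125a-5p was low, leukocyte miRNAs summed to 1816 to 2543 RPM (controls 3098 to 3844) and hepatocyte miRNAs to 290728 to 318113 RPM (controls 221131 to 244494), and 2 of 4 leukocyte miRNAs were called lower on each day. The endothelial sum (17441 to 20149 RPM, controls 20495 to 24112) and the epithelial or bile duct sum (354.8 to 611 RPM, controls 629.6 to 1072) were also below all controls. Single miRNAs did not all follow these sums. Of the 5 epithelial or bile duct miRNAs, 2 were called lower on day 7, but on day 14 2 were called higher and 1 lower. On both days 0 of the 2 endothelial miRNAs were called. The part of these cell types in the members' values was not tested.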

How the data were processed

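Small RNA was sequenced from the livers of 48 rats (TruSeq small RNA libraries, Illumina sequencing). After adaptor removal, the authors restricted the reads to lengths between 18 and 25 bases, checked them with FastQC and against rn5, and counted them on miRBase release 21 with miRDeep2. The deposited values are raw counts per miRNA and precursor. The number of mismatches allowed and the handling of reads that match several miRNAs are not given in the sources used here, so how reads were split among near-identical members is uncertain. Library totals were 293331 to 14906217 counts, and 3 counts are 10.2 RPM in the shallowest library. Such limits cover counting error only.

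Here, for each miRNA the precursor row with the most reads was kept, and RPM was computed from the sum of these counts. miRNAs with at least 5 RPM in at least 3 libraries were tested with the quasi-likelihood F-test of edgeR (version 4.0.16, R version 4.3.3) after upper quartile normalization, each treated group against the controls of its day, and in 1 fit of all libraries for mean dose effects and differences between doses or times (adjusted p below 0.05). Ratios used log2(count + 1) and exact permutation within time points in Python 3.11.15. Groups came from the sample labels, and p-values measure the spread between rats. The named miRNAs are the members, their other strands, let-7 neighbours, relatives by seed, the most alike miRNAs and cell type markers. The members and lists were chosen with earlier results of these data known. Strand ratios, the differences of the middle dose from the others and the fits without 3 libraries were added after the values were seen. Alternatives were TMM, DESeq2 (1.42.0) size factors and library size, other filters and tests, precursor rows summed, all 12 controls pooled, and leaving out each library. The scripts were tested on simulated data.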

Additional observations from a re-analysis of the deposited data

Results flagged for a closer look

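Values are flagged here where the effects of 2 doses at the same time, against the same controls, differed by a test of the difference itself (edgeR, adjusted p below 0.05). All are differences on the log2 scale. The comparisons of 1 day share control rats, and those with the middle dose share middle dose rats. For miR-99a-5p, the middle dose differed from the high on day 14 by 1.76, the high on day 28 by 1.70, the low on day 14 by 1.67, the low on day 7 by 1.44. For miR-99b-5p, the middle dose differed from the high on day 14 by 1.71, the high on day 28 by 1.80, the low on day 14 by 1.61, the low on day 7 by 1.31. For miR-100-5p, the middle dose differed from the high on day 14 by 2.80, the high on day 28 by 2.17, the low on day 14 by 2.94, the low on day 7 by 2.35, the last being a description, since the middle dose day 7 level of miR-100-5p was known when the members were chosen. For miR-125a-5p, the middle dose differed from the low on day 14 by 1.10, the low on day 7 by 1.13. For miR-125b-5p, the middle dose differed from the high on day 14 by 1.46, the high on day 28 by 1.46, the low on day 14 by 1.55, the low on day 7 by 1.40. For let-7a-5p, the middle dose differed from the low on day 14 by -1.20, the low on day 28 by -0.74, the low on day 7 by -1.19 and the high dose differed from the low on day 14 by -1.02, the low on day 7 by -0.79. For let-7c-5p, the middle dose differed from the low on day 14 by -1.12, the low on day 7 by -1.08 and the high dose differed from the low on day 14 by -0.99, the low on day 7 by -0.75. For let-7e-5p, the middle dose differed from the low on day 14 by -0.51. For miR-125b-2-3p, the middle dose differed from the low on day 14 by -0.71, the low on day 7 by -0.75 and the high dose differed from the low on day 14 by -0.84. For miR-99a-3p, the high dose differed from the low on day 14 by -0.88. No test for a single outlying value was run within groups, which hold 3 rats each.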

How the results depend on the processing

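The 12 middle dose calls on days 7 to 28 include miR-100-5p on day 7, which is a description. They kept their direction under every alternative run, and 201 of their alternative values stayed past the threshold. The 3 that did not were all of miR-125b-5p on day 28: 0.55 with no filter, 0.70 in a fit of all libraries and 0.51 without replicate 38. The count of middle dose calls higher was 11 to 12 with 1 library left out, and of calls lower 0 to 1. Calls lower with the low dose (3 in the report) numbered 6 with TMM, DESeq2 size factors, no filter, the precursor rows summed, the DESeq2 Wald test or all 12 controls pooled, 7 with library size, and 5 with at least 5 RPM required in every library or in a fit of all libraries. Calls higher with the low dose (0) numbered 3 with no filter, the Wald test or pooled controls, and 1 with library size, the filter in every library, summed precursor rows, the exact test or a fit of all libraries. With the high dose, calls lower (1) numbered 2 with size factors, the filter in every library or summed precursor rows, 3 with no filter or a fit of all libraries, 4 with the Wald test and 0 with pooled controls. Calls higher (0) numbered 1 with no filter, pooled controls, the exact test or a fit of all libraries, and calls lower with the middle dose (0) 1 with the Wald test and 2 in a fit of all libraries. Mean effects with the low dose (1 member) numbered 2 with TMM, size factors, library size, no filter or the Wald test and 3 without the 3 libraries named in the report. With the high dose (1) they numbered 2 with TMM, size factors, no filter, the Wald test or without these 3. High against low dose (0) numbered 2 with TMM, no filter or the Wald test, 1 with library size and 4 without the 3. Middle against high dose (8) numbered 15 and day 28 against day 7 (0) 5 without the 3. With group medians in place of means, member ratios of the high dose (2) numbered 1, strand ratios of the low dose (3) 0 and of the high dose (1) 0. The cause of these shifts was not tested. The mean low dose effect of miR-99b-5p turned from -0.10 to 0.34 without the 3 libraries. Counts and values without these 3 are descriptions, since the libraries were picked after the values had been seen.

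With 1 library left out, the counts were 0 to 4 higher and 2 to 5 lower (low dose), 0 to 1 higher and 1 to 3 lower (high dose), 0 to 3 (high against low), 7 to 12 (middle against high), 9 to 11 (middle against low), 1 to 2 and 1 to 3 (mean effects, low and high), 1 to 3 (ratios, high) and 0 to 3 and 1 to 3 (strand ratios, low and high). Low dose day 28 replicate 29 gave the 4 higher, low dose day 14 replicate 40 the 5 lower, and control day 3 replicates 2 and 3 the 3 lower with the high dose. High dose day 7 replicate 26 gave 3 for the mean effects and strand ratios of the high dose. No paired analysis was possible because the running numbers in the labels are not shared between groups. In the shallowest library, control day 3 replicate 1, 3 counts are 10.2 RPM.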
